A study of Homo sapiens with 12 samples.

Results

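The AP-1 family genes FOS, FOSB, FOSL1, FOSL2, JUN, JUNB, JUND and ATF3 were followed in newly made and steady-state RNA of human HCT116 cells with a knockout of the phosphatase gene PPM1G. The 8 genes are those rows, of 56104 gene rows in both count tables, whose symbol belongs to the FOS, JUN and ATF3 family. They were chosen with their KO-against-Ctrl values in these same libraries already known, so their changes are given as a description. Calls given for them below are part of that description and no independent test. HCT116 is a colorectal carcinoma cell line, and PPM1G, also called PP2Cγ, is a protein phosphatase found in the nucleus. The groups were PPM1G KO cells and Ctrl cells, the latter titled Ctrl_KO, both HCT116 at under 15 passages. Each was measured in 3 libraries per assay, 12 in all. In 4sU-seq the cells received a 10 min pulse of 500 µM 4-thiouridine, a nucleoside taken up into RNA as it is transcribed, and the labelled RNA was biotinylated and pulled down, so the reads stand for RNA made during the pulse. RNA-seq of the same genotypes, with no labelling stated, stands for steady-state RNA. All libraries carry ERCC spike-in RNA. The labels call the 4sU-seq replicates biological and say nothing of separate cultures for RNA-seq, whose p-values may therefore measure technical spread. They do not say which site in PPM1G was edited, whether the KO line is 1 clone, or how the Ctrl line was made, so effects of the knockout and of clonal selection cannot be told apart.

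AP-1 is a dimeric transcription factor built from basic leucine zipper proteins. Jun proteins pair with each other or with Fos proteins, Fos proteins need a Jun partner, and ATF3, a stress-induced member of the ATF/CREB branch, pairs with Jun proteins. FOS and JUN are immediate early genes: growth factor and stress signals run through MAP kinases to factors already bound at their promoters, transcription starts within minutes, and short-lived mRNAs carrying AU-rich elements and unstable proteins end the response. FOSL1 and FOSL2 (FRA-1 and FRA-2) lack the strong activation domain of FOS, and FOSL1 is held high by persistent ERK signalling in many carcinoma lines.

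The promoters of FOS, JUN, JUND and ATF3, the members whose labelled RNA was higher in every KO library than in any Ctrl library, are printed because elements known to bind Jun and ATF/CREB proteins lie close to their starts. The sequences are from RefSeq (GRCh38.p14) and run from 250 bases before to 50 after the annotated start, 5′ to 3′ on the gene's strand, with matches to TGACGT, TGACNTCA or TGACTCA, on either strand, in capitals. They are FOS at chr14:75278578-75278877 on the plus strand, JUN at chr1:58783998-58784297 on the minus strand, JUND at chr19:18281573-18281872 on the minus strand, and the first of the ATF3 promoters at chr1:212565157-212565456 on the plus strand.
FOS: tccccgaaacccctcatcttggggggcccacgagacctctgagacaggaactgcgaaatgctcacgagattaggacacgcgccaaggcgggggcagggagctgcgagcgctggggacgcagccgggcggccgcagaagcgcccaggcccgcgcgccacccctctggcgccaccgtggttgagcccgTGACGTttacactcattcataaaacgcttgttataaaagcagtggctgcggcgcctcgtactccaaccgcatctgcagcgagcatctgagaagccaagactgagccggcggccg
JUN: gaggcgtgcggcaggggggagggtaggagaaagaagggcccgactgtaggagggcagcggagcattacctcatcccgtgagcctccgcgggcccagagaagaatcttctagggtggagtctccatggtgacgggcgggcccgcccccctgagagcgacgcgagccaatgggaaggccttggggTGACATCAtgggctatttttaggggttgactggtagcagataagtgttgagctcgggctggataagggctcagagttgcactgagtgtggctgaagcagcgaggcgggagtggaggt
JUND: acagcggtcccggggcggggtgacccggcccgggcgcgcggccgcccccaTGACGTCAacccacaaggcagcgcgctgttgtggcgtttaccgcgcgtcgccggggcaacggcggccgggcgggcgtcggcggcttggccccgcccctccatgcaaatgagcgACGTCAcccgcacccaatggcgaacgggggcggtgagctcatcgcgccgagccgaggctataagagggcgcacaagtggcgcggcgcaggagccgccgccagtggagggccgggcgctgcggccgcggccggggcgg
ATF3: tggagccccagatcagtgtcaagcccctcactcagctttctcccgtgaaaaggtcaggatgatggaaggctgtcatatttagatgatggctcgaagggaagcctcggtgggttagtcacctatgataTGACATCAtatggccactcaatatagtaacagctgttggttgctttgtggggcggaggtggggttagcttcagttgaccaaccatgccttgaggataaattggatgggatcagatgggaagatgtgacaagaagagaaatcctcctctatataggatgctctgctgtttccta
The FOS promoter has TGACGT, the core letters of a cAMP response element, 64 bases before the start and TATAAA 33 bases before it. The JUN promoter reads TGACATCA 67 bases before the start, the AP-1 variant at which Jun and ATF dimers are known to bind. ATF3 reads the same 8 letters 123 bases before the first of its listed starts. JUND has the complete TGACGTCA 200 bases before the start and a further TGACGT, on the reverse strand, 87 bases before it. Promoter entries were found for 7 of the 8 genes, 8 entries in all with the pair for ATF3. These entries need not cover every promoter of a gene. TGACGT, which overlaps TGACGTCA, was in 4 of these 8 (FOS, FOSB, FOSL2, JUND) and in 7.98% of 35116 promoters of the same length. In FOSB and FOSL2, whose promoters are not printed, it lay 60 bases (FOSB) and 66 bases (FOSL2) before the start. FOSL2 had less labelled RNA in KO than in Ctrl cells. Any link between these elements and labelled RNA was not tested. TGACNTCA was in 3 of the 8 (JUN, JUND, ATF3) and in 7.72% of all, TGACGTCA was in 1 and in 1.85%, and TGACTCA, the classical AP-1 site, was in 1 (FOSL2) and in 4.95%. TATAAA was in 4 of the 8 and in 11.5% of all. The serum response element core, searched by its CArG letters, was in none of the 8 windows and in 1.29% of all. Sites further than 250 bases before a start lie outside the windows, so this search cannot show that a gene lacks the element.

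The 3′ UTR of FOS carries the AU-rich element that gives this mRNA its short life. Its nonamer (capitals; TTATTTA followed by a pair of A or T letters) with 10 bases on either side, from the GENCODE 29 principal transcript, is given here.
FOS AU-rich site: tgtttttaatTTATTTATTaagatggatt
FOS had 5 AUUUA pentamers in a 3′ UTR of 806 bases, or 6.20 per kb, which placed it at percentile 94.8 of 11193 genes with a median of 1.66 per kb. JUNB had 2 in 500 bases (4.00 per kb), ATF3 had 3 in 1222 (2.45 per kb) and JUN had 3 in 1287 (2.33 per kb). FOSL2 had 9 in 4864 bases (1.85 per kb), FOSL1 had 1 in 666 (1.50 per kb), JUND had 1 in 681 (1.47 per kb) and FOSB had 3 in 2166 (1.39 per kb). The nonamer was in FOS and FOSL2 and in 20.7% of all genes. FOS thus had the highest density of the 8, and the other 7 ranged from 1.39 to 4.00 per kb.

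The 4sU-seq libraries held 79403238 to 101884166 counts in genes and the RNA-seq libraries 30962756 to 42479828. Levels are CPM, counts scaled to library size with TMM factors set within each assay. A gene is said to be called where its adjusted p was under 0.05 in edgeR's quasi-likelihood test, with Benjamini-Hochberg adjustment over all genes tested. PPM1G itself had 98.9, 144 and 104 CPM in KO 4sU-seq, against 242, 271 and 235 CPM in Ctrl 4sU-seq, and 97.8, 94.9 and 97.9 CPM in KO RNA-seq, against 326, 293 and 331 CPM in Ctrl RNA-seq. Its RNA was thus reduced to 30.6% of Ctrl at steady state and remained detectable, and its protein was not measured here. Of 8 epithelial markers, EPCAM, KRT8, KRT18, KRT19 and CDH1 were at or above 1 CPM in all 4 groups. VIL1 had 3.95 CPM in KO and 3.67 CPM in Ctrl 4sU-seq, but 0.237 CPM in KO and 0.168 CPM in Ctrl RNA-seq. LGALS4 had 0.120 CPM in KO and 0.264 CPM in Ctrl 4sU-seq, and 0.0554 CPM in KO and 0.0934 CPM in Ctrl RNA-seq. CEACAM5 was at 0 in KO RNA-seq and in both 4sU-seq groups. The summed CPM of 9 markers of blood, endothelium, stroma and liver was 22.3 to 26.4 in KO and 11.0 to 12.5 in Ctrl 4sU-seq, and 10.3 to 11.8 in KO and 4.57 to 6.69 in Ctrl RNA-seq, most of it from COL1A1 and, in 4sU-seq, PECAM1. Of the 9, 3 reached 1 CPM in each 4sU-seq group and 1 in each RNA-seq group; CD3E and COL1A2 were at 0 in KO RNA-seq, PTPRC, CD3E and COL1A2 in Ctrl RNA-seq, and COL1A2 in Ctrl 4sU-seq. Their part in the results was not tested. The 4sU-seq KO library 2 stood apart: its counts gave a chi-square per degree of freedom of 303 against KO library 1 and 400 against KO library 3, while libraries 1 and 3 gave 31.4. RNA-seq KO libraries 1 and 2 were nearly alike (1.71, against 10.5 to 19.0 for the other RNA-seq pairs) but still differed beyond sampling noise, and were kept as separate libraries.

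At steady state JUND and JUNB led the family in KO cells, FOSL1 led it in Ctrl cells, and FOS and FOSB were the lowest in both. Per kilobase of exon, RNA-seq gave JUND 60.7 ± 7.36 RPKM and JUNB 52.7 ± 3.03 RPKM in KO cells, 2 levels that overlapped within 1 SD (n = 3 throughout). FOSL1 followed at 34.0 ± 0.800 RPKM and FOSL2 at 9.10 ± 0.161 RPKM in KO cells. JUN at 3.12 ± 0.0933 and ATF3 at 3.01 ± 0.137 RPKM overlapped within 1 SD in KO cells, above FOS at 2.30 ± 0.215 and FOSB at 0.898 ± 0.0368 RPKM. In Ctrl cells FOSL1 stood at 139 ± 11.99 RPKM, JUND at 53.1 ± 2.29, JUNB at 39.9 ± 2.46 and FOSL2 at 15.9 ± 0.709 RPKM. JUN at 5.69 ± 0.311, ATF3 at 3.10 ± 0.0399, FOS at 2.77 ± 0.195 and FOSB at 0.878 ± 0.0737 RPKM completed the Ctrl order, in which no neighbours overlapped within 1 SD. FOSL1 was therefore the leading Fos-class transcript in both genotypes, behind JUND and JUNB in KO cells and ahead of both in Ctrl cells.

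**Figure D1:**
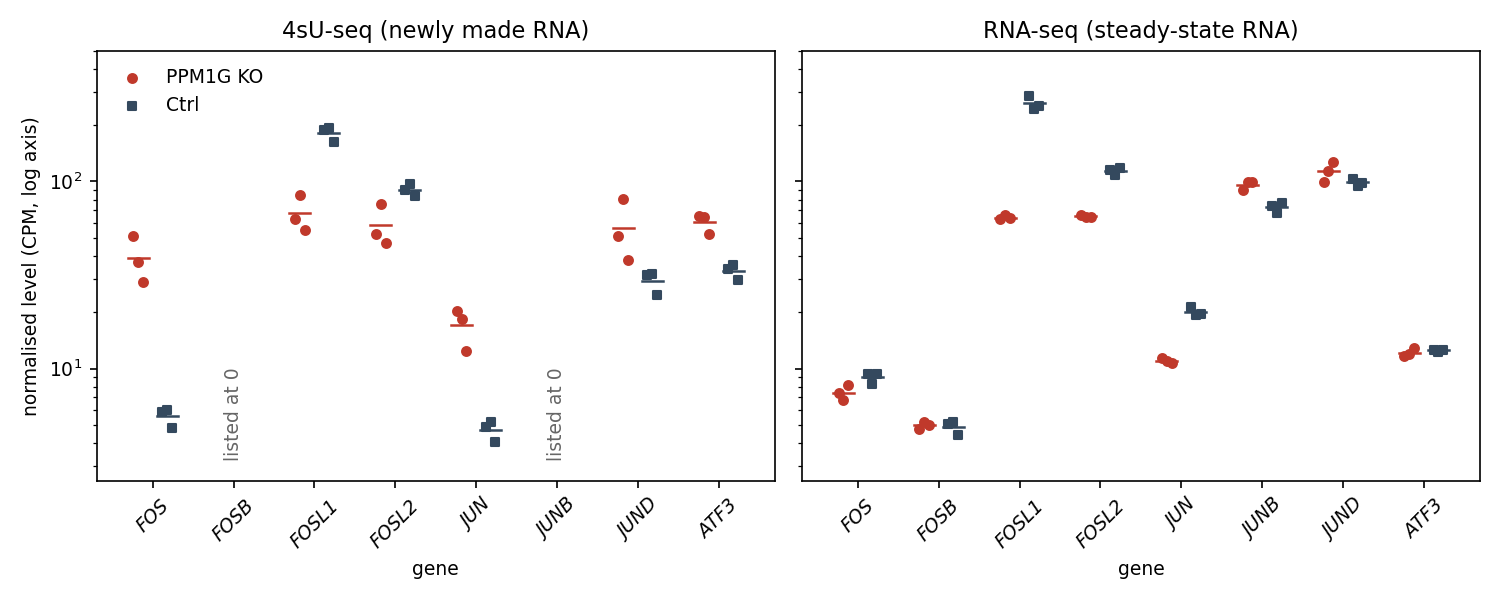
Level of each AP-1 gene in every library, in TMM-scaled CPM on a log axis, with 4sU-seq on the left and RNA-seq on the right (red circles, PPM1G KO; blue squares, Ctrl; the short lines are means of 3 libraries). In 4sU-seq the KO circles of FOS and JUN lie above all Ctrl squares, while in RNA-seq they lie below them; FOSB and JUNB are listed at 0 in 4sU-seq.

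Among the Fos genes, FOS (chr14:75278774-75282230, plus strand, GENCODE 29 on hg38) had the largest difference in labelled RNA. FOS encodes the founding Fos protein, a strong activator when paired with JUN. Its 4sU-seq level was 51.2, 37.0 and 29.2 CPM in KO libraries 1 to 3, against 5.87, 5.98 and 4.79 CPM in Ctrl libraries 1 to 3. All KO libraries were high and all Ctrl libraries low, with a log2 difference of 2.82 ± 0.24 (SE, n = 3 each), or 7.05-fold. In these bulk libraries a change per cell and a change in the share of cells holding the transcript cannot be told apart. In RNA-seq FOS had 7.42, 6.75 and 8.14 CPM in KO cells, against 9.34, 8.24 and 9.33 CPM in Ctrl cells. The KO levels were here the lower ones, just short of overlap, with a log2 difference of −0.28 ± 0.09 and a KO mean at 82.6% of Ctrl. The call on that small difference was kept in 5 of 14 alternative treatments of the counts, and with library size as the only scaling the log2 difference was −0.09.

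FOSL1 (chr11:65892049-65900573, minus strand), the gene of FRA-1, was lower in KO cells in both assays. Its 4sU-seq level was 63.0, 84.6 and 55.2 CPM in KO cells and 187, 193 and 162 CPM in Ctrl cells, a log2 difference of −1.42 ± 0.18 that left 37.4% of the Ctrl level. In RNA-seq it had 63.0, 65.8 and 63.5 CPM in KO cells and 287, 244 and 254 CPM in Ctrl cells. No KO library came near a Ctrl library, and the log2 difference was −2.03 ± 0.07, or 24.5% of Ctrl. FOSL1 had the largest steady-state difference of the 8 genes.

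FOSL2 (chr2:28392448-28417312, plus strand), the gene of FRA-2, had the direction of FOSL1 with a smaller size. It had 52.3, 75.3 and 47.0 CPM in KO 4sU-seq, against 89.8, 96.6 and 83.5 CPM in Ctrl 4sU-seq, a log2 difference of −0.63 ± 0.19. The groups did not overlap, but the difference was not called across all genes. In RNA-seq it had 66.4, 64.8 and 64.2 CPM in KO cells and 115, 108 and 118 CPM in Ctrl cells, a log2 difference of −0.81 ± 0.06. FOSB (chr19:45467995-45475179, plus strand), whose product activates AP-1 sites in stimulated cells, had 4.77, 5.18 and 5.00 CPM in KO RNA-seq and 5.05, 5.16 and 4.41 CPM in Ctrl RNA-seq. The groups overlapped, and the log2 difference was 0.03 ± 0.10.

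Among the Jun genes, JUN (chr1:58780788-58784327, minus strand) had the widest split between the assays. JUN has no intron, and its protein is the main partner of the Fos proteins. Its 4sU-seq level was 20.2, 18.5 and 12.4 CPM in KO cells, against 4.88, 5.21 and 4.03 CPM in Ctrl cells. All KO libraries were high, and the log2 difference was 1.86 ± 0.22, or 3.62-fold. In RNA-seq JUN had 11.4, 11.0 and 10.7 CPM in KO cells, against 21.4, 19.4 and 19.6 CPM in Ctrl cells. The order of the groups was turned round, with a log2 difference of −0.87 ± 0.07 and a KO mean at 54.7% of Ctrl. LINC01135, a noncoding gene that starts 801 bases from the JUN start on the opposite strand, was looked up after the values were seen. It had 10.1, 7.33 and 8.44 CPM in KO 4sU-seq and 4.50, 4.29 and 4.70 CPM in Ctrl 4sU-seq, a log2 difference of 0.94 ± 0.16 (edgeR quasi-likelihood test, adjusted p = 0.00955), and was too low in RNA-seq to be tested. That call did not hold with ERCC scaling (edgeR adjusted p = 0.189), nor without any 1 of the Ctrl 4sU-seq libraries (0.0510 to 0.0619).

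JUND (chr19:18279760-18281622, minus strand), the Jun gene that is expressed in resting cells and whose protein slows growth in mouse fibroblasts, had 50.8, 80.5 and 38.0 CPM in KO 4sU-seq and 31.8, 32.1 and 24.7 CPM in Ctrl 4sU-seq. The groups did not overlap, but KO library 2 was far above the other two, and the log2 difference of 0.94 ± 0.29 was not called. In RNA-seq JUND had 99.4, 113 and 127 CPM in KO cells and 104, 95.1 and 98.3 CPM in Ctrl cells, which overlapped, with a log2 difference of 0.19 ± 0.08. JUNB (chr19:12791496-12793315, plus strand), whose protein dampens JUN activity at many sites, had 89.6, 99.1 and 99.2 CPM in KO RNA-seq and 73.7, 67.8 and 76.5 CPM in Ctrl RNA-seq. All KO libraries were above all Ctrl libraries, with a log2 difference of 0.40 ± 0.07. JUNB was the only member whose KO libraries all lay above the Ctrl libraries at steady state.

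ATF3 (chr1:212565334-212620777, plus strand) had 65.1, 64.8 and 52.7 CPM in KO 4sU-seq, against 34.2, 35.9 and 29.8 CPM in Ctrl 4sU-seq. All KO libraries were high, and the log2 difference was 0.87 ± 0.14, or 1.83-fold. In RNA-seq it had 11.7, 12.004 and 12.8 CPM in KO cells and 12.6, 12.3 and 12.6 CPM in Ctrl cells, which overlapped, with a log2 difference of −0.04 ± 0.07. The promoter set used here lists a pair of starts for ATF3, and it may lack others. Which start these cells use was not tested, and the gene-level counts cannot tell the transcripts apart.

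FOSB and JUNB were listed at 0 in all 6 4sU-seq libraries, and no labelled level is read from these zeros. Both genes lie wholly inside the annotated span of a gene on the opposite strand, FOSB in ERCC1 (chr19:45407333-45478828) and JUNB in HOOK2 (chr19:12763003-12872740). Among protein-coding genes with at least 300 RNA-seq counts in all, 523 of 579 genes inside another gene's span (90.3%) were at 0 in every 4sU-seq library. The same was true of 93 of 7403 genes that overlapped another gene in part (1.26%) and of 2 of 3512 genes that overlapped none (0.0569%). Both genes were counted in every RNA-seq library. FOSL2 overlaps FLJ31356 on the opposite strand in part, and AC104695.3 lies within it on the same strand. Their part in the FOSL2 counts was not tested. Whether the 2 tables were counted with the same features and strand setting is not given in the sources used here.

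**Figure D2:**
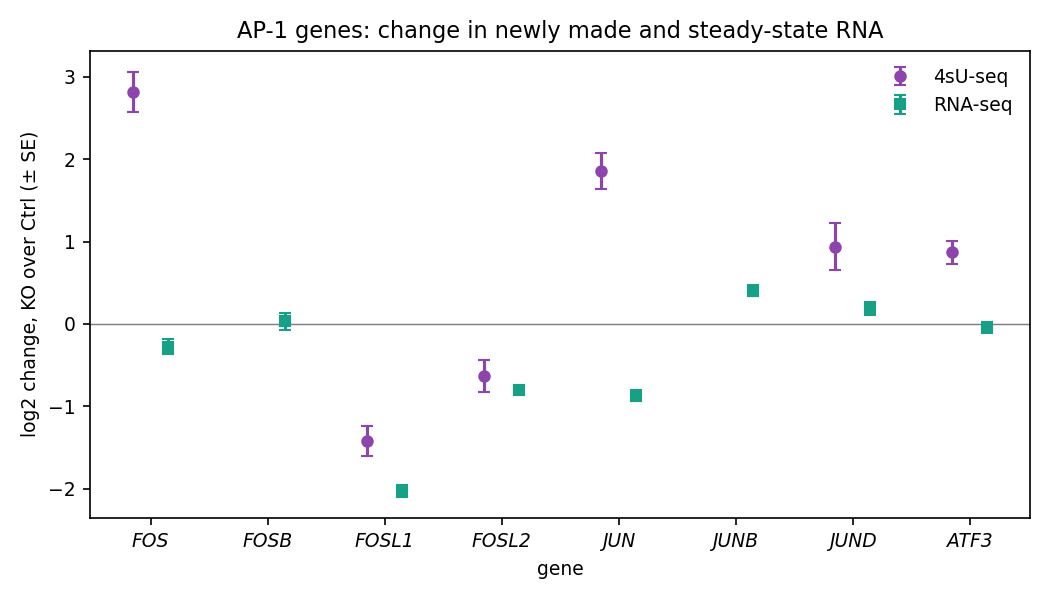
log2 difference of KO over Ctrl for each AP-1 gene in 4sU-seq (purple circles) and RNA-seq (green squares). Bars are 1 SE, derived from the F statistic of the fit (n = 3 libraries per group). FOSB and JUNB have no 4sU-seq point. FOS and JUN lie above 0 in 4sU-seq and below 0 in RNA-seq, whereas FOSL1 and FOSL2 lie below 0 in both.

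In 4sU-seq 6 of the 8 genes were tested, 3 were called higher in KO (FOS, JUN, ATF3), 1 lower (FOSL1) and 2 were not called (FOSL2, JUND). Over all 21236 genes tested, 12.6% were called higher and 6.98% lower. The groups did not overlap in any of the 6, nor in 38.4% of all genes. The median log2 difference was 0.90 over the 6 members and 0.05 over all genes. In RNA-seq all 8 were tested, 1 was called higher (JUNB), 4 lower (FOS, FOSL1, FOSL2, JUN) and 3 were not called (FOSB, JUND, ATF3). Over all 20415 genes tested, 21.5% were called higher and 26.8% lower, and the groups did not overlap in 5 of the 8 members and in 56.1% of all genes. The median log2 difference was −0.16 over the 8 members and 0.00 over all genes. Since the 8 genes were chosen on these contrasts, nothing is read from their counts against the background.

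The balance of calls over all genes depended on the scaling. Of the 4sU-seq calls 64.4% were higher in KO, against 78.3% with library size alone and 93.9% with scaling to the ERCC totals. Of the RNA-seq calls 44.6% were higher in KO, against 72.4% with library size alone and 61.6% with ERCC totals. ERCC scaling moved the median of all genes to 0.27 in 4sU-seq, and library size alone moved it to 0.14 in 4sU-seq and 0.19 in RNA-seq. Under these scalings FOS, JUN and ATF3 kept a higher, and FOSL1 and FOSL2 a lower, labelled level in KO cells, although the ATF3 and FOSL1 calls were lost with ERCC scaling. At steady state FOS, JUN, FOSL1 and FOSL2 stayed lower in KO, and the ATF3 difference near 0 turned positive, up to 0.14. Without 4sU-seq KO library 2 the labelled log2 differences were 2.79 for FOS, 1.72 for JUN, 0.75 for ATF3, 0.52 for JUND, −0.93 for FOSL2 and −1.68 for FOSL1, and all 6 were called.

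The difference between the 2 assays sets the KO change in labelled RNA against that in steady-state RNA. Its SEs come from a fit that shares each gene's spread between the assays, and they may be too small. FOS had the largest value of the family: its change was 3.09 ± 0.27 log2 units higher in 4sU-seq than in RNA-seq, the 9th highest of 15863 genes tested in both assays. JUN followed at 2.72 ± 0.23, the 13th highest, and ATF3 at 0.91 ± 0.15, at rank 364. JUND had 0.73 ± 0.29, FOSL1 0.61 ± 0.18 and FOSL2 0.17 ± 0.19. FOS, JUN and ATF3 were called, as were 1.27% of all genes in that direction, while none was called in the other, as were 1.24% of all genes. The median was 0.82 over the 6 members and 0.03 over all genes. The members were chosen with these values known, so nothing is read from their counts against the background. Of all such calls 50.5% had the higher change in 4sU-seq, against 71.4% of 7 calls with ERCC scaling and 29.7% of 387 with library size alone, and ERCC scaling moved the median of all genes to 0.14. The values of FOS and JUN stayed between 2.58 and 3.26 in every alternative run, and that of ATF3 between 0.82 and 1.04.

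**Figure D3:**
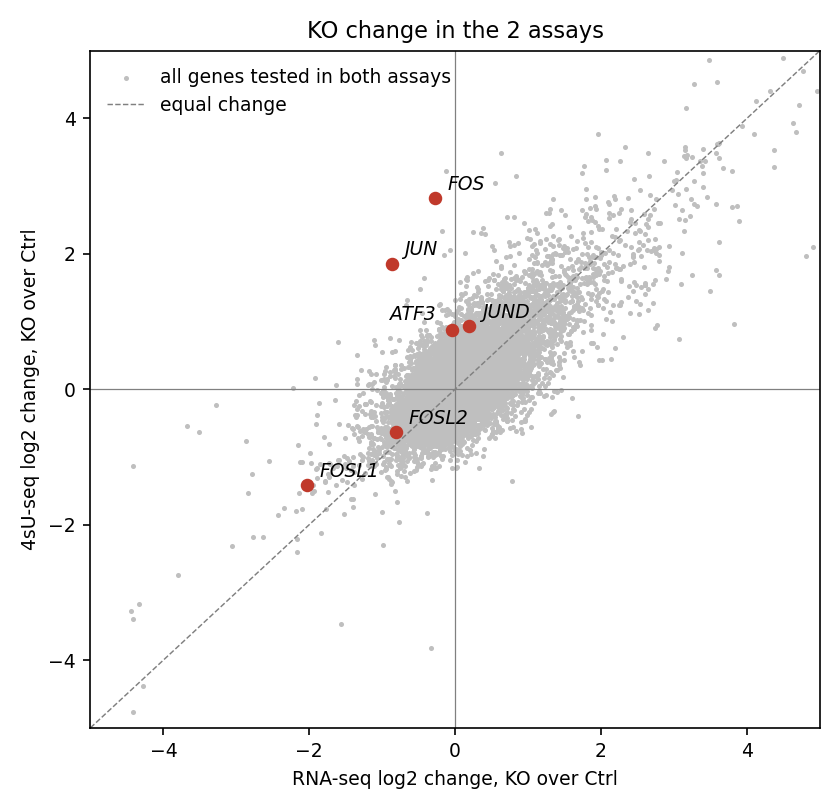
KO-over-Ctrl log2 difference in 4sU-seq (vertical) against RNA-seq (horizontal) for the 15863 genes tested in both assays (grey; 41 lie outside the axes), with the 6 measured AP-1 genes in red and the line of equal change dashed. FOS and JUN stand in the upper left, away from the band of genes along the line, and FOSL1 and FOSL2 lie in the lower left near that band.

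The same contrast can be read within each genotype as a log2 ratio of the 4sU-seq level to the RNA-seq level, on CPM scaled within each assay. For FOS the ratio was 2.40 ± 0.19 in KO cells and −0.69 ± 0.19 in Ctrl cells, which is percentile 89.9 of all genes in KO and 23.6 in Ctrl. For JUN it was 0.63 ± 0.16 in KO and −2.10 ± 0.17 in Ctrl, percentile 59.6 in KO and 3.46 in Ctrl. ATF3 had a high ratio in both genotypes, 2.32 ± 0.11 in KO and 1.41 ± 0.10 in Ctrl. JUND had a low one in both, −1.01 ± 0.21 in KO and −1.75 ± 0.21 in Ctrl. ATF3 spans 55444 bases with 4040 in exons, whereas JUND (1863 bases) and JUN (3540 bases) have no intron. Whether reads in introns were counted in either assay is not given in the sources used here. Their part in the ratios and percentiles was not tested. FOSL1 had 0.07 ± 0.13 in KO and −0.54 ± 0.13 in Ctrl, and FOSL2 had −0.17 ± 0.13 in KO and −0.34 ± 0.13 in Ctrl. The median of all genes was 0.26 in KO and 0.23 in Ctrl, so FOS and JUN lay below it in Ctrl cells and above it in KO cells.

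**Figure D4:**
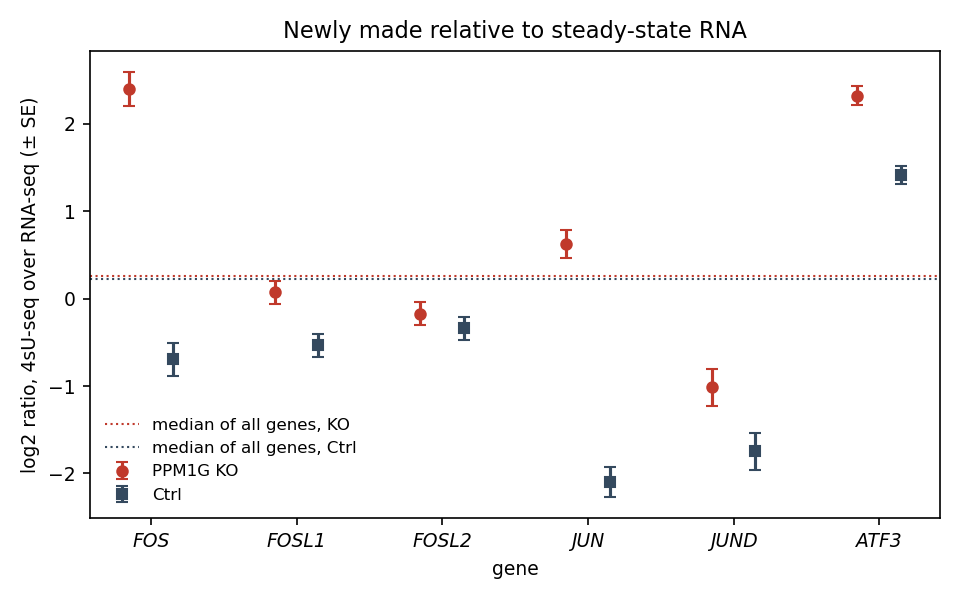
log2 ratio of 4sU-seq over RNA-seq level for the 6 AP-1 genes measured in both assays, in PPM1G KO (red circles) and Ctrl cells (blue squares), with 1 SE; the dotted lines are the medians of all genes. The ratio of FOS is 2.40 in KO and −0.69 in Ctrl, that of JUN 0.63 in KO and −2.10 in Ctrl.

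Within the 4sU-seq groups, library 3 was the lowest for all 6 measured members in KO cells and for all 6 in Ctrl cells, and library 2 was the highest for all 6 in Ctrl cells. In KO cells the highest library was 1 for FOS, JUN and ATF3 and 2 for FOSL1, FOSL2 and JUND. Over the 12 libraries, after each assay's mean was taken off, the 3 genes whose TMM log2 CPM most resembled FOS were EGR1 (Pearson r = 0.988), an immediate early zinc finger factor, UBE2H (0.958), a ubiquitin-conjugating enzyme, and JDP2 (0.954), a Jun-binding repressor. EGR1 differed by 3.23 on the log2 scale in 4sU-seq and by −0.12 in RNA-seq. UBE2H differed by 0.75 in 4sU-seq and −0.06 in RNA-seq, and JDP2 by 1.39 in 4sU-seq and 0.26 in RNA-seq. Over the 6 RNA-seq libraries alone the r with FOS was 0.583 for EGR1, 0.882 for UBE2H and −0.52 for JDP2, and over the 6 4sU-seq libraries it was 0.992 for EGR1, 0.959 for UBE2H and 0.994 for JDP2. For JUN they were TNFRSF10B (0.991), a death receptor, KLF2 (0.958), a zinc finger factor, and ETV5 (0.955), an ETS factor. KLF2 differed by 1.24 in 4sU-seq and by −0.67 in RNA-seq, the split direction of JUN. TNFRSF10B differed by only 0.33 in 4sU-seq and −0.17 in RNA-seq, and ETV5 by 0.36 in 4sU-seq and −0.11 in RNA-seq. Pearson r takes no account of the size of a change. For FOSL1 they were SOGA1 (0.999), KRT80 (0.997), a keratin, and ADAM19 (0.996), a metalloprotease. Of 10662 genes ranked, 42 were above 0.9 for FOS, 20 for JUN and 1011 for FOSL1. These r values share the same 12 libraries and mostly follow the difference between 2 genotypes, so they are a description.

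The partners and other basic leucine zipper factors, a list of 23 genes, were next compared. This list and those that follow were chosen with earlier results of these data known. Their called counts and p-values are therefore no independent test. In 4sU-seq 6 of 20 tested rose in KO cells and none fell, with a median log2 change of 0.31, where 12.6% of all genes were called higher and 6.98% lower, and 20.1% of protein-coding genes were called. CREB5, a CREB-family partner of JUN, rose to 7.73 ± 2.45 CPM in KO, against 0.615 ± 0.0267 CPM in Ctrl (log2 3.65 ± 0.28, edgeR adjusted p = 0.000936). JDP2 rose to 90.5 ± 7.50 CPM in KO, against 34.5 ± 2.23 CPM in Ctrl (log2 1.39 ± 0.12, edgeR adjusted p = 0.00129). DDIT3, the stress factor CHOP, rose to 25.9 ± 3.45 CPM in KO, against 11.0 ± 0.782 CPM in Ctrl (log2 1.24 ± 0.14, edgeR adjusted p = 0.00310). In RNA-seq 5 of 19 rose and 6 fell, with a median of 0.04, where 21.5% of all genes were called higher and 26.8% lower, and 59.7% of protein-coding genes were called. The fall was seen in the small Maf genes MAFK (log2 −0.48 ± 0.05, edgeR adjusted p = 7.96e-06) and MAFG (−0.40 ± 0.05, edgeR adjusted p = 4.30e-05), in ATF7 (−0.52 ± 0.08, edgeR adjusted p = 7.07e-05), a relative of ATF2, and in NFE2L1 (−0.29 ± 0.06, edgeR adjusted p = 0.000615), a cap'n'collar factor. Between the assays 2 of 18 were called, JDP2 (1.12 ± 0.13, edgeR adjusted p = 0.00311) and DDIT3 (0.98 ± 0.14, edgeR adjusted p = 0.00686), both with the higher change in labelled RNA, as were 1.27% of all genes. Without 4sU-seq KO library 2, 15 were called in 4sU-seq and 10 between the assays. With ERCC scaling 7 were called in RNA-seq and none between the assays.

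The inputs to FOS and JUN, MAP kinases, their activators and the serum response factor complex, formed a list of 30 genes. In 4sU-seq 2 of 30 were called, both higher in KO, with a median log2 change of 0.08, where 12.6% of all genes were called higher. In RNA-seq 4 of 28 rose and 16 fell, with a median of −0.22, where 21.5% of all genes were called higher and 26.8% lower, and 59.7% of protein-coding genes were called. SRF, the factor that drives FOS through the serum response element, fell to 79.3 ± 2.27 CPM in KO, against 117 ± 4.03 CPM in Ctrl (log2 −0.56 ± 0.06, edgeR adjusted p = 3.07e-06). MAP2K4, an activator of JNK, fell to 107 ± 3.95 CPM in KO, against 168 ± 6.20 CPM in Ctrl (log2 −0.66 ± 0.06, edgeR adjusted p = 8.88e-07). MAP2K3, an activator of p38, fell to 95.5 ± 2.67 CPM in KO, against 145 ± 2.24 CPM in Ctrl (log2 −0.60 ± 0.05, edgeR adjusted p = 1.16e-06). ARAF, a RAF kinase, went the other way and rose to 41.3 ± 0.293 CPM in KO, against 7.14 ± 0.208 CPM in Ctrl (log2 2.53 ± 0.06, edgeR adjusted p = 6.38e-12). It also rose in 4sU-seq (log2 1.26 ± 0.27, edgeR adjusted p = 0.0212) and was the only 1 called between the assays, with the smaller change in labelled RNA (−1.28 ± 0.26, edgeR adjusted p = 0.0298), as were 1.24% of all genes. MAPK10, a JNK gene, had 4.08 ± 2.37 CPM in KO 4sU-seq and 0.914 ± 0.434 CPM in Ctrl 4sU-seq (log2 2.16 ± 0.60, edgeR adjusted p = 0.0499). The 4sU-seq count was 15 without KO library 2, 1 without KO library 3, and 0 without KO library 1 or any 1 Ctrl library. The count between the assays was 13 without 4sU-seq KO library 2 and 0 without 4sU-seq KO library 1, any 1 Ctrl 4sU-seq library or any 1 RNA-seq library. With ERCC scaling 11 were called in RNA-seq, 1 in 4sU-seq and none between the assays.

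Factors that bind AU-rich RNA or turn over AP-1 proteins formed a list of 12 genes. In RNA-seq 1 of 12 rose and 8 fell, with a median of −0.35, where 21.5% of all genes were called higher and 26.8% lower, and 59.7% of protein-coding genes were called. ZFP36L1, which binds AU-rich elements and promotes mRNA decay, fell to 64.7 ± 3.15 CPM in KO, against 254 ± 16.4 CPM in Ctrl (log2 −1.97 ± 0.07, edgeR adjusted p = 9.14e-11). The decay factor KHSRP (log2 −0.49 ± 0.06, edgeR adjusted p = 8.96e-06), the stabilising factor ELAVL1, or HuR (−0.45 ± 0.05, edgeR adjusted p = 1.18e-05), and HNRNPD, or AUF1 (−0.53 ± 0.07, edgeR adjusted p = 1.82e-05), also fell. The gene that rose was DET1, a ubiquitin ligase component for JUN (log2 0.45 ± 0.11, edgeR adjusted p = 0.00367), which is named after its value was seen. In 4sU-seq 2 of 11 fell, ZFP36L1 (log2 −1.08 ± 0.17, edgeR adjusted p = 0.00742) and ELAVL1 (−0.55 ± 0.15, edgeR adjusted p = 0.0431), with a median of −0.18, where 6.98% of all genes were called lower. Between the assays ZFP36, itself an immediate early gene, had 1.11 ± 0.21 (edgeR adjusted p = 0.0247) and ZFP36L1 had 0.88 ± 0.17 (edgeR adjusted p = 0.0218), 2 of 11, where 1.27% of all genes were called in that direction. The 4sU-seq count was 8 without KO library 2, and 1 without KO library 1 or any 1 Ctrl library. The count between the assays was 5 without 4sU-seq KO library 2, 1 without KO library 1, and 0 without 4sU-seq Ctrl library 1 or 3 or any 1 RNA-seq library. With ERCC scaling none was called in 4sU-seq or between the assays.

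Known AP-1 target genes formed a list of 33. In RNA-seq 5 of 25 rose and 14 fell, where 21.5% of all genes were called higher and 26.8% lower, and 59.7% of protein-coding genes were called. The median was −0.32 over the list and 0.00 over all genes. AREG, an EGF receptor ligand, fell to 71.3 ± 2.80 CPM in KO, against 181 ± 8.48 CPM in Ctrl (log2 −1.35 ± 0.06, edgeR adjusted p = 1.53e-09). TNC, a matrix protein, fell to 0.0967 ± 0.0657 CPM in KO, a level near the limit that 3 counts set (0.0770 to 0.0932 CPM), against 8.30 ± 0.909 CPM in Ctrl (edgeR adjusted p = 4.10e-10). MMP14, a membrane matrix metalloprotease, rose to 12.6 ± 0.346 CPM in KO, against 1.02 ± 0.124 CPM in Ctrl (log2 3.62 ± 0.11, edgeR adjusted p = 5.68e-11).

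In 4sU-seq 7 of 24 AP-1 targets rose and 1 fell, where 12.6% of all genes were called higher and 6.98% lower, with a median of 0.04 over the list and 0.05 over all genes. ITGA2, an integrin subunit, rose to 207 ± 78.7 CPM in KO, against 37.7 ± 7.33 CPM in Ctrl (log2 2.45 ± 0.33, edgeR adjusted p = 0.00519), and TNC was the one that fell (edgeR adjusted p = 0.000100). MMP7 and SPP1, a protease and a secreted phosphoprotein, also rose at low levels, MMP7 to 0.392 ± 0.0291 CPM in KO, against 0.0686 ± 0.00710 CPM in Ctrl (edgeR adjusted p = 0.00111), and SPP1 to 0.721 ± 0.188 CPM in KO, against 0.159 ± 0.00913 CPM in Ctrl (edgeR adjusted p = 0.00336). Between the assays 6 of 24 had the higher change in labelled RNA and 1 the lower, where 1.27% of all genes were called in the first direction and 1.24% in the other, with a median of 0.51 over the list and 0.03 over all genes. AREG (1.43 ± 0.16, edgeR adjusted p = 0.00268), GADD45A (0.76 ± 0.11, edgeR adjusted p = 0.00663) and PLAUR (0.96 ± 0.15, edgeR adjusted p = 0.0105) were among the 6, and MMP14 was the one with the lower (−1.95 ± 0.27, edgeR adjusted p = 0.00597). AREG and PLAUR had log2 changes of 0.08 ± 0.14 and −0.04 ± 0.15 in 4sU-seq, not called, and PLAUR fell by 1.00 ± 0.07 in RNA-seq (edgeR adjusted p = 1.25e-07). The 4sU-seq count was 15 without KO library 2 and 5 without KO library 1. The count between the assays was 12 without 4sU-seq KO library 2, and 4 without 4sU-seq KO library 1, Ctrl library 1 or Ctrl library 3, or without any 1 RNA-seq library but Ctrl library 1. With ERCC scaling 4 were called in 4sU-seq and 1, MMP14, between the assays. The list of targets was chosen with earlier results of these data known, so nothing is read from its counts against the background.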

How the data were processed

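The deposited tables hold raw read counts per gene, 1 table per assay, with 12 library columns in all. Per the submitters' processing notes, the authors used FastQC 0.11.2, HISAT2 2.1.0, SAMtools 1.3 and featureCounts on hg38. No source used here gives the annotation, strand or multi-mapping settings, so reads from overlapping genes could be lost or misplaced. The 92 ERCC rows were kept out of library sizes. Their counts came to 0.0371 ± 0.0170% of gene counts in KO and 0.0371 ± 0.00775% in Ctrl 4sU-seq (SD, n = 3), and to 0.559 ± 0.0197% in KO and 0.524 ± 0.0422% in Ctrl RNA-seq.

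Counts were fitted with edgeR 4.0.16 (R 4.3.3, TMM, filterByExpr with a minimum count of 10, quasi-likelihood F test, two-sided, Benjamini-Hochberg over all genes tested, threshold 0.05) within each assay, without a block. Each SE of a log2 difference or ratio was its size divided by the square root of the F statistic of its test. The difference between assays was a genotype-by-assay interaction fitted to the 12 libraries together. This fit shared each gene's estimate of spread between the assays, although the 4sU-seq libraries varied more. Its SE was below that of the 4sU-seq change alone for FOSL1 (0.180 against 0.182) and FOSL2 (0.187 against 0.195). It was above it for FOS, JUN, JUND and ATF3. SEs and adjusted p-values between the assays may therefore be too small. Alternatives included the Wald test of DESeq2 1.42.0. The steps were tested on simulated data. The smallest detectable level, set by 3 counts, was 0.0302 to 0.0365 CPM in 4sU-seq and 0.0739 to 0.0972 CPM in RNA-seq, for counting error only. Deviations from the group means were compared between KO and Ctrl libraries. Those of the same number correlated at −0.16, 0.88 and 0.85 in 4sU-seq and −0.06, 0.21 and 0.31 in RNA-seq. For KO libraries 1 to 3 the highest r with a Ctrl library of another number was 0.76, 0.21 and −0.23 in 4sU-seq. It was 0.25, −0.05 and 0.09 in RNA-seq. In 4sU-seq, libraries 2 and 3 thus shared variation with the Ctrl library of their number. The labels state no pairing, so the main fit leaves this out, and runs with the number as a block are given below.

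The 8 genes and the pathway lists were chosen with earlier results of these data known. From each list the text names up to 4 called genes with the smallest p per comparison; a few of them are not reported here. For likeness, genes needed a mean of 2 or more in log2 CPM (pseudocount 0.5) in each assay. Annotation was GENCODE 29 on hg38, to which 94.3% of 56104 gene IDs matched, and promoters came from RefSeq.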

Additional observations from a re-analysis of the deposited data

How the results depend on the processing

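The alternative runs reuse the libraries on which the members were chosen. They show how far a value depends on the processing and lend a member's call no further support. The log2 differences of FOS and JUN kept their direction and their calls in 4sU-seq and between the assays under every alternative run: 2.58 to 3.03 (FOS) and 1.69 to 2.04 (JUN) in 4sU-seq. JUN (−0.90 to −0.69), FOSL1 (−2.05 to −1.85), FOSL2 and JUNB did so in RNA-seq. The FOS call in RNA-seq held in 5 of 14 alternatives (−0.35 to −0.09), that of ATF3 in 4sU-seq in 11 of 14, that of FOSL1 in 4sU-seq in 13 of 14, and that of ATF3 between the assays in 19 of 21. No called difference of a member changed sign. The uncalled differences of FOSL2 between the assays (−0.02 to 0.30) and of FOSB (−0.01 to 0.21) and ATF3 (−0.08 to 0.14) in RNA-seq did.

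Counts of called genes in 4sU-seq, 4166 in all, came to 716 with ERCC scaling, 10893 without both libraries numbered 2, and 1322 to 11673 with 1 library left out, the highest without KO library 2; without Ctrl libraries 1, 2 and 3 in turn they were 1322, 1478 and 1710, and without KO library 1 they were 1645. The RNA-seq count of 9871 stayed within 1.5 times under each alternative (7103 to 10516; 8145 to 10151 with 1 library left out). Between the assays the count of 398 came to 7 with ERCC scaling, 190 with no filter, 1119 with DESeq2's Wald test, 3928 without both 4sU-seq libraries numbered 2, 108 with RNA-seq KO libraries 1 and 2 added, and 86 to 4361 with 1 library left out (lowest without RNA-seq KO library 2, highest without 4sU-seq KO library 2). With the replicate number as a block, 6907 genes were called in 4sU-seq, 10384 in RNA-seq and 656 between the assays. Among the members, FOSL2 and JUND in 4sU-seq, JUND in RNA-seq and FOSL1 between the assays were also called under that block. The causes were not tested. Of the other genes named, ERCC scaling ended the 4sU-seq calls of PPM1G, ITGA2, GADD45A, ZFP36L1, ELAVL1 and MAPK10, the RNA-seq calls of JDP2, NFE2L1 and GADD45A, and the calls between assays of JDP2, DDIT3, ARAF, ZFP36, ZFP36L1, AREG, PLAUR and GADD45A. Library size alone ended those of ELAVL1 in 4sU-seq, NFE2L1 and GADD45A in RNA-seq, and ZFP36 and ZFP36L1 between assays. With 1 library left out, ARAF, MAPK10, ELAVL1 and GADD45A in 4sU-seq, JDP2 and DDIT3 in RNA-seq, and ARAF, ZFP36 and ZFP36L1 between assays lost their calls at least once.

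The ERCC share differed 2.44-fold among the 4sU-seq libraries, which limits scaling by it.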

Other observations

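JDP2, one of the genes most like FOS, is also its neighbour on chromosome 14: the starts lie 149 kb apart. This was looked up after the values were seen. Of 7 protein-coding genes that start within 250 kb of FOS, JDP2 had the largest log2 change in labelled RNA, 1.39, with 0.26 at steady state. BATF, a further AP-1 gene in that window, was not tested in both assays. The other 5 (TMED10, NEK9, ACYP1, ZC2HC1C and MLH3) lay between −0.46 and 0.26 in 4sU-seq and between −0.09 and 0.24 in RNA-seq.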
